A study of Homo sapiens with 4 samples.

Results

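The genes described here are 33 members of the unfolded protein response and the integrated stress response, listed by name among 20037 protein-coding genes, with earlier results of these data known and with no threshold on a measured value. All 33 were matched to the RefSeq table of GRCh38.p14. Of these, 17 form an arm around the transcription factor ATF4, called the ISR arm here. The other 16 form an arm of endoplasmic reticulum (ER) stress sensors, chaperones and degradation factors, called the ER arm. Accessible DNA was located by ATAC-seq, which relies on insertion of adapters by the transposase Tn5, in 786-O cells, an established line of human clear cell renal cell carcinoma. Cells received 5 µM ACSS2i for 24 h (2 libraries) or an equal volume of the solvent DMSO for 24 h (2 libraries). ACSS2 is an enzyme that makes acetyl-CoA from acetate, and the labels name the inhibitor only as ACSS2i. The study asked which accessible regions change under the compound. The labels give 1 cell line, 1 dose and 1 time, and nothing says that the libraries came from separate cultures.

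When unfolded proteins build up in the ER, the sensors PERK (gene EIF2AK3), IRE1 (ERN1) and ATF6 are activated. IRE1 splices XBP1 mRNA, ATF6 is cut to release a transcription factor, and both raise the supply of ER chaperones and of the machinery that returns misfolded proteins to the cytosol. PERK, like the other eIF2-alpha kinases that respond to amino acid shortage, haem shortage or viral RNA, slows general translation while ATF4 mRNA is translated better. ATF4 then activates genes of amino acid uptake and synthesis, of one-carbon metabolism and of feedback and cell death. These transcripts and proteins were not measured here. ATAC-seq shows whether the DNA at their genes was accessible.

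The sequence elements through which these factors are known to act lay in some of the members' promoters. RefSeq sequence of GRCh38.p14, from 250 bases before to 50 bases from the annotated start base on (300 bases), was given for 31 members and 15843 genes in all, and each motif was searched on both strands. The ER stress element (CCAAT, then any 9 bases, then CCACG), a site known to bind ATF6 together with NF-Y, occurred in 4 of the 16 ER arm promoters and 0 of the 15 ISR arm promoters, against 0.120% of all promoters. The 5 matches, each read in the direction of the element with the fixed letters in capitals, were as follows.
XBP1: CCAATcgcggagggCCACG
HSPA5: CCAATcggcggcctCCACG
HSP90B1 far site: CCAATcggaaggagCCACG
HSP90B1 near site: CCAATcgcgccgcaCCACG
CALR: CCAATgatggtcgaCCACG
The shorter ER stress element II (ATTGG, any base, CCACG) occurred in 3 of the 16 ER arm promoters, those of HERPUD1, SDF2L1 and HYOU1, and in 0 of the 15 ISR arm promoters, against 0.0757% of all promoters. HYOU1 held it at 2 places. The C/EBP-ATF element (TGATGNAA), bound by ATF4 with a C/EBP partner, occurred in ASNS and CHAC1, 2 of the 15 ISR arm promoters, and in HERPUD1, 1 of the 16 ER arm promoters, against 2.53% of all promoters. The UPR element (TGACGTGG) occurred in HYOU1 alone among the members, overlapping its upstream ER stress element II, against 0.833% of all promoters. The cAMP element (TGACGTCA, a palindrome counted once per site) occurred in PPP1R15A alone among the members, against 2.59% of all promoters. A match is a description of the letters and not evidence of binding.

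A set of 6 promoters is printed whole because their members carry the contrasts described below, and a match of the motifs is in capitals. HSPA5 encodes BiP, the main ER chaperone, and its ER stress element lies 66 to 48 bases before the start (chr9:125241294-125241593, minus strand).
HSPA5: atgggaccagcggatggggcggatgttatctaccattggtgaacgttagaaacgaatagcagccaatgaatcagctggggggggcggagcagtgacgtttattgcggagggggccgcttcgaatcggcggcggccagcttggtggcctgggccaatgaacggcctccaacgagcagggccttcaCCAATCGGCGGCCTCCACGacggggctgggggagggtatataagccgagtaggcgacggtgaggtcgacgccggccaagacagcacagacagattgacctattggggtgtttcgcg
HERPUD1, a scaffold of ER-associated degradation, holds a C/EBP-ATF element 176 to 169 bases and an ER stress element II 117 to 107 bases before the start (chr16:56931892-56932191, plus strand).
HERPUD1: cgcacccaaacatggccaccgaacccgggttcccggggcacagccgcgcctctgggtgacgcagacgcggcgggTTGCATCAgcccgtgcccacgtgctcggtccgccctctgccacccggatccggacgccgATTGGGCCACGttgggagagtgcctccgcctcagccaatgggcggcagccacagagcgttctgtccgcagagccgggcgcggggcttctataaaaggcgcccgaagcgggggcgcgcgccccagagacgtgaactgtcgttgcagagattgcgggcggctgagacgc
HYOU1, an ER chaperone of the HSP110 family, holds its 2 ER stress elements II and the UPR element on the strands shown by the capitals (chr11:119057156-119057455, minus strand).
HYOU1: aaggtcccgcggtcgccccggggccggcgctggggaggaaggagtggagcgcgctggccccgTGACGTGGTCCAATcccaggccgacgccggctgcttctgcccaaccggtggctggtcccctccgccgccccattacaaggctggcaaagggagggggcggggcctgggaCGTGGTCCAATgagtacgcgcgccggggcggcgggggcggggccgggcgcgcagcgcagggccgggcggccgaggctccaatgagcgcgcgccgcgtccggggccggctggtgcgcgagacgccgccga
CHAC1, which degrades glutathione, holds a C/EBP-ATF element 209 to 202 bases before the start (chr15:40953221-40953520, plus strand).
CHAC1: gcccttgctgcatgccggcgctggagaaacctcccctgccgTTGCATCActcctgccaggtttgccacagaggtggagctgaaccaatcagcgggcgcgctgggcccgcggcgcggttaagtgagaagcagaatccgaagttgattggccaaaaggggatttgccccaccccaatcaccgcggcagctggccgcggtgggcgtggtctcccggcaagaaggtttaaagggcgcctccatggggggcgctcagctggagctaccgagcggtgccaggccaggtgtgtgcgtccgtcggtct
ASNS, asparagine synthetase, holds a C/EBP-ATF element 68 to 61 bases before the start (chr7:97872359-97872658, minus strand).
ASNS: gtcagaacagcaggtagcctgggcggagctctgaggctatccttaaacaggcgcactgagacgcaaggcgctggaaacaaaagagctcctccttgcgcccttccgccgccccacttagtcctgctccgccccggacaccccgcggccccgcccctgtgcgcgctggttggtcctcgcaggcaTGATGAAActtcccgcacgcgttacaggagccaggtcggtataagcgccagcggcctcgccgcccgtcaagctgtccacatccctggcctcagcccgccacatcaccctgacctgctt
ATF6 held none of the 5 motifs in this window and has the lowest GC content of the 31 member promoters, 47.0%, against a median of 66.0% for members and 62.7% for all promoters (chr1:161766070-161766369, plus strand).
ATF6: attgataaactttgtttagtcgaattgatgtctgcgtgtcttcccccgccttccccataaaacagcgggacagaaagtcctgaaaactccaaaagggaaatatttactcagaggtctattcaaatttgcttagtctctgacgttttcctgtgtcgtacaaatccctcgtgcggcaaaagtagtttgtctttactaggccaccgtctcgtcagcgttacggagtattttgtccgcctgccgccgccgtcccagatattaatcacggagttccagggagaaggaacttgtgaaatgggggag

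The 4 peak lists differed in length, which touches every count below. They held 16400 and 22044 peaks in the ACSS2i libraries, against 34696 and 50294 in the DMSO libraries. Peaks within 1000 bp of either end of a gene are called gene-end peaks here, and genes with one numbered 6519 and 8161 in the ACSS2i libraries, against 10545 and 12013 in the DMSO libraries. The sources used here give no read totals. The genome background coverage recovered from the lists was 2.32 and 3.16 fragments in the ACSS2i libraries, against 2.06 and 1.75 in the DMSO libraries. The group with the shorter lists thus had the higher background, although within the ACSS2i group the shorter list had the lower one. The 8 markers listed as kidney and epithelial included VIM, which is also a mesenchymal marker. Of the 8, 6 carried a gene-end peak in each DMSO library, against 10471 of all 20037 genes. PAX8, KRT8 and VIM were among the 6, whereas PAX2 and CA9 had none in any library. KRT8 and KRT18, both among the 6, had the same peak values in every library. Of 5 immune and 4 endothelial markers, none carried such a peak in each DMSO library, and CD14 had one in DMSO replicate 2 alone. With 2 libraries a group the smallest p that an exact permutation test can give is 0.333, so values are described without a test, and a difference between groups is weighed against the gap between the libraries of a group.

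Most members stayed accessible at a gene end. A gene-end peak was listed for 24 and 23 of the 33 members in the ACSS2i libraries, against 29 and 31 in the DMSO libraries. For 29 members such a peak was listed in both DMSO lists, and 21 of these were in all 4 (72.4%), against 58.0% of the 10471 genes that met the same condition. ATF5, CEBPB and ATF6, 3 of the 29 (10.3%), had one in neither ACSS2i library, against 18.9% of those 10471 genes. Another 5 were listed in 1 ACSS2i library and both DMSO libraries. TRIB3, ERN1 and HYOU1 were in ACSS2i replicate 1 and SHMT2 and CEBPG in ACSS2i replicate 2. PHGDH and SLC7A5 were listed in DMSO replicate 2 alone, ASNS and PDIA6 in no library, and 0 members in ACSS2i libraries alone. With ACSS2i replicate 1 left out, 6 of 29 members were absent from the other ACSS2i library, TRIB3, ERN1 and HYOU1 being added, against 22.8% of all genes. With ACSS2i replicate 2 left out, 5 of 29 were absent from the other one, SHMT2 and CEBPG being added, against 38.1%. With DMSO replicate 1 left out, 5 of 31 members in the other DMSO library were in neither ACSS2i library, PHGDH and SLC7A5 being added, against 28.5%. With every list cut to the 16400 strongest peaks, the length of the shortest, 0 of 21 members were lost, against 5.29% of 6261 genes. ATF5, CEBPB and ATF6 were then not in both DMSO lists, so they left the count and regained no ACSS2i peak.

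**Figure D1:**
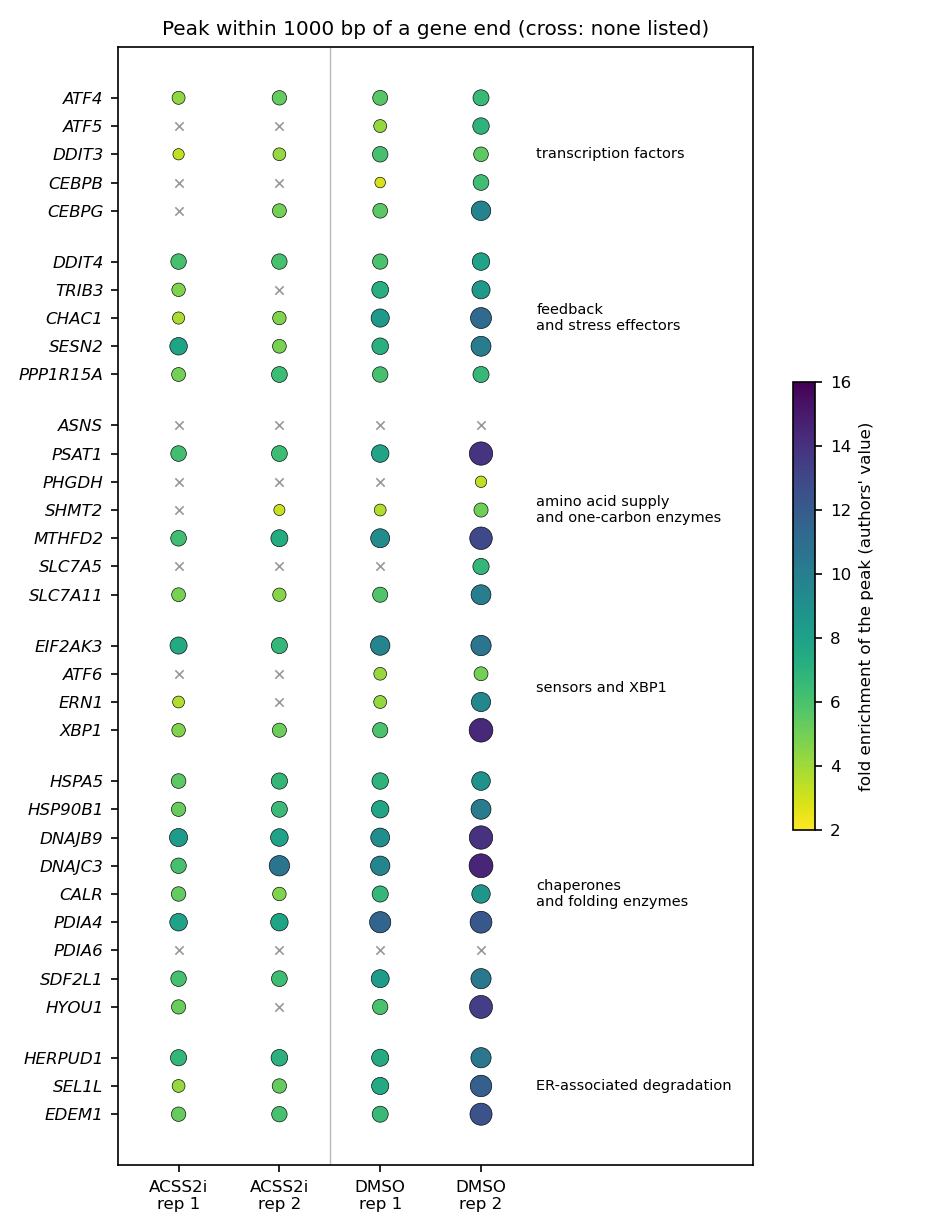
Gene-end peaks of the 33 members (rows, grouped by role) in the 2 ACSS2i and 2 DMSO libraries (columns). Dot size and colour give the authors' fold enrichment of the strongest gene-end peak and a cross means that none was listed; crosses number 9 and 10 in the ACSS2i columns, against 4 and 2 in the DMSO columns.

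By the gene-end rule the arms differed in how many members they kept, in counts too small to test. In the ER arm 12 of the 15 members present in both DMSO libraries were in all 4 libraries and 1 was lost. In the ISR arm 9 of 14 were in all 4 libraries and 2 were lost. At the annotated start base alone, 10 of 13 in the ISR arm and 12 of 15 in the ER arm were in all 4. The difference between the arms thus depends on which gene end is used. The arms also differed in starting strength. The strength of a gene was taken as the percentile of its −log10 q within a library, and for DMSO the lower of the replicate percentiles was used. The median of this lower DMSO percentile was 85.2 in the ER arm and 73.1 in the ISR arm, 83.3 over all 29 members and 65.4 over the 10471 genes. When genes were binned into 10 classes by that percentile, 70.7% of genes in the weakest class and 0.287% in the strongest were in neither ACSS2i library. If members were lost at the rates of their own classes, 3.71 of the 29 would be lost, beside the 3 observed. The same count was 2.59 beside 2 for the ISR arm and 1.12 beside 1 for the ER arm. Members in all 4 libraries numbered 21, beside 20.6 at the rates of their classes. The members thus did not stand apart from genes of like DMSO strength by these counts.

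**Figure D2:**
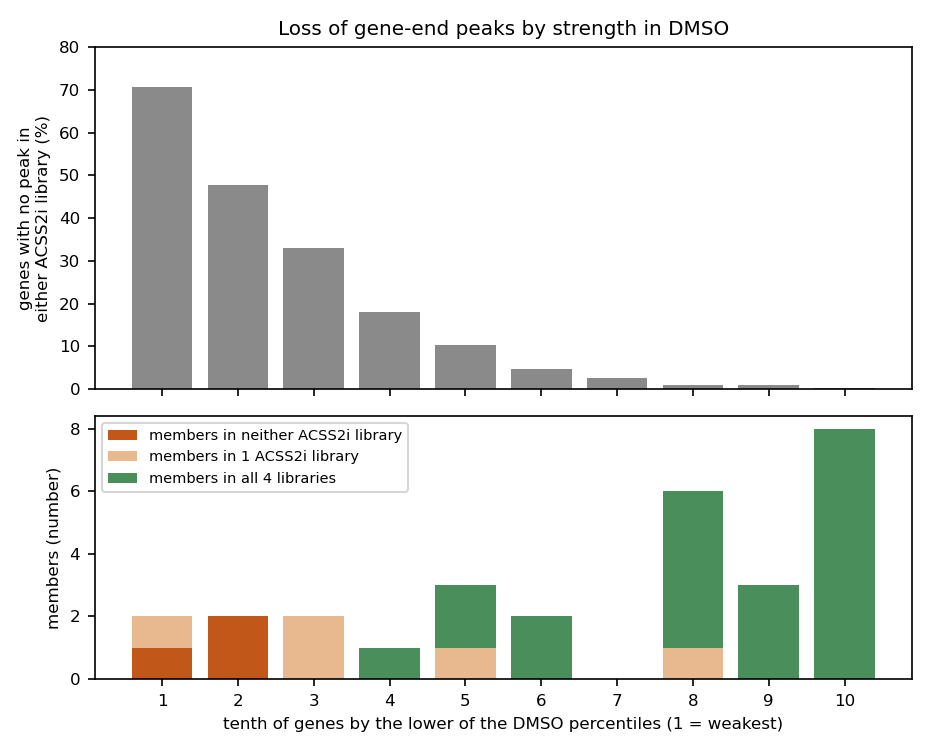
Top, percent of the 10471 genes found in both DMSO lists that were in neither ACSS2i list, by 10 classes of the lower DMSO percentile of −log10 q. Bottom, number of the 29 members in each class by their presence in the ACSS2i libraries; all 3 lost members lie in the weakest 2 classes and all 8 members of the strongest class were in all 4 libraries.

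Among the transcription factors of the ISR arm, ATF4, DDIT3, ATF5, CEBPB and CEBPG, 2 of 5 were in all 4 libraries. At the rates of their DMSO strength classes, 1.71 would be in all 4 and 1.665 would be lost, beside the 2 lost. ATF4 is the factor whose translation rises when eIF2-alpha is phosphorylated. Its gene-end peak (gene at chr22:39520559-39522686) had folds of 4.32 and 5.34 in the ACSS2i libraries, against 5.72 and 6.58 in the DMSO libraries. The gap between these groups was narrower than the gap within either. The share of all genes with lower folds in both ACSS2i libraries was not counted. Here and below, fold is the authors' enrichment of a summit over the local background of its own library and −log10 q is their significance score per peak. DDIT3, which encodes the cell death factor CHOP (chr12:57516588-57520517), had folds of 3.27 and 4.20 in the ACSS2i libraries, against 6.15 and 5.50 in the DMSO libraries. Ranked among the genes found in all 4 libraries, a scale described below, DDIT3 stood at 3.52 and 26.6 in the ACSS2i libraries, against 44.4 and 3.33 in the DMSO libraries, and the groups overlapped. The window of DDIT3 also holds an end of MBD6.

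ATF5, a transcription factor related to ATF4 (chr19:49928906-49933935), had no gene-end peak in either ACSS2i library, against a fold of 4.29 in DMSO replicate 1 and 6.95 in DMSO replicate 2. The nearest listed ACSS2i peaks lay 30862 and 30929 bp from the gene, so the span extended by 25 kb held no called peak there. Its DMSO peak also lies within the window of NUP62 and IL4I1. CEBPB, a C/EBP partner of ATF4 (chr20:50190583-50192690), had none in the ACSS2i libraries, against a fold of 2.87 in DMSO replicate 1 and 6.32 in DMSO replicate 2. The DMSO libraries differed widely there, at percentiles of 12.5 and 77.7. Upstream of CEBPB, 2 regions were in all 4 libraries, one 24.5 kb from the start (chr20:50165646-50166534) with folds of 5.56 and 4.90 in the ACSS2i libraries, against 7.49 and 9.44 in the DMSO libraries. CEBPG, another C/EBP family partner of ATF4, was absent from ACSS2i replicate 1 and had a fold of 5.00 in ACSS2i replicate 2, against 5.57 and 9.75 in the DMSO libraries.

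Of the 5 feedback and stress effectors, 4 were in all 4 libraries, beside 4.64 at the rates of their DMSO strength classes. DDIT4 (REDD1, an inhibitor of mTORC1) had folds of 6.15 and 6.08 in the ACSS2i libraries, against 6.01 and 7.85 in the DMSO libraries. SESN2, another inhibitor of mTORC1, had folds of 7.85 and 4.87 in the ACSS2i libraries, against 7.09 and 10.2 in the DMSO libraries, and its groups overlapped. CHAC1 had folds of 3.79 and 4.63 in the ACSS2i libraries, against 8.48 and 11.2 in the DMSO libraries, a gap between groups wider than the gap within either. The folds of DDIT3, EIF2AK3 and PDIA4 showed such a gap as well. The share of all genes with such a gap was not counted. PPP1R15A encodes GADD34, which guides the phosphatase that reverses eIF2-alpha phosphorylation, and its strongest gene-end peak lay near the 3′ end of the gene in all 4 libraries. That peak had folds of 4.96 and 6.40 in the ACSS2i libraries, against 6.14 and 6.63 in the DMSO libraries. The strongest peak within 1000 bp of the start base of PPP1R15A was weaker than that one. Its folds were 3.77 and 3.20 in the ACSS2i libraries, against 2.80 and 2.36 in the DMSO libraries, both ACSS2i folds being higher. By −log10 q the groups overlapped, at 4.10 and 4.51 in the ACSS2i libraries, against 4.37 and 4.06 in the DMSO libraries. The summits lay 379 and 712 bp from the start base in the ACSS2i libraries, against 629 and −32 bp (upstream) in the DMSO libraries. TRIB3, a pseudokinase that restrains ATF4 signalling, had a fold of 4.64 in ACSS2i replicate 1 and no gene-end peak in ACSS2i replicate 2, against 7.22 and 8.44 in the DMSO libraries. The RefSeq promoter places the TRIB3 start base inside the gene span at position 381295 of chromosome 20. A peak within 1000 bp of that base was listed in all 4 libraries, with a fold of 4.65 in ACSS2i replicate 2, so the absence of TRIB3 there depends on which start is used.

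Among the genes of amino acid supply and one-carbon metabolism, PSAT1, MTHFD2 and SLC7A11 were in all 4 libraries. These are 3 of the 4 in both DMSO libraries, beside 2.43 at the rates of their DMSO strength classes. PSAT1, an enzyme of serine synthesis, had folds of 6.23 and 6.40 in the ACSS2i libraries, against 7.90 and 13.9 in the DMSO libraries. MTHFD2, a mitochondrial folate enzyme, had folds of 6.29 and 7.42 in the ACSS2i libraries, against 9.24 and 13.0 in the DMSO libraries. SLC7A11, the cystine transporter subunit xCT, had folds of 4.88 and 4.56 in the ACSS2i libraries, against 5.86 and 10.1 in the DMSO libraries. SHMT2, which feeds serine carbon into mitochondrial folates, was absent from ACSS2i replicate 1 and had a fold of 3.16 in ACSS2i replicate 2, against 3.60 and 5.11 in the DMSO libraries. No member of this role was lost from both ACSS2i libraries, beside 0.891 at the rates of their classes.

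ASNS, PHGDH and SLC7A5 show how far the choice of gene end matters. ASNS had no peak at either end of its RefSeq span (chr7:97851677-97928441), yet a peak covered the start base of its printed promoter in all 4 libraries. That peak had folds of 6.32 and 5.54 in the ACSS2i libraries, against 7.43 and 12.6 in the DMSO libraries, and its summits lay 41.5 and 40.5 bp from the middle of the C/EBP-ATF element in the ACSS2i libraries, against 44.5 and 24.5 bp in the DMSO libraries. PHGDH, the first enzyme of serine synthesis, had no peak at its start in any library and 1 peak at its 3′ end, in DMSO replicate 2, with a fold of 3.34. SLC7A5, the LAT1 amino acid transporter, had a gene-end peak with a fold of 6.78 in DMSO replicate 2. In the other libraries the nearest peak lay just outside the window, 1213 and 1218 bp away with folds of 4.23 and 4.07 in the ACSS2i libraries, against 1085 bp away with a fold of 6.36 in DMSO replicate 1. PDIA6, a disulphide isomerase of the ER arm, had a peak 19.9 kb inside the gene from its printed start (chr2:10811962-10813188) in all 4 libraries, with folds of 3.79 and 4.46 in the ACSS2i libraries, against 5.53 and 11.4 in the DMSO libraries. Counted at the start base alone, 22 of the 28 members present in both DMSO libraries were in all 4 and the same 3 were lost (10.7%), against 18.3% of 8534 genes.

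**Figure D3:**
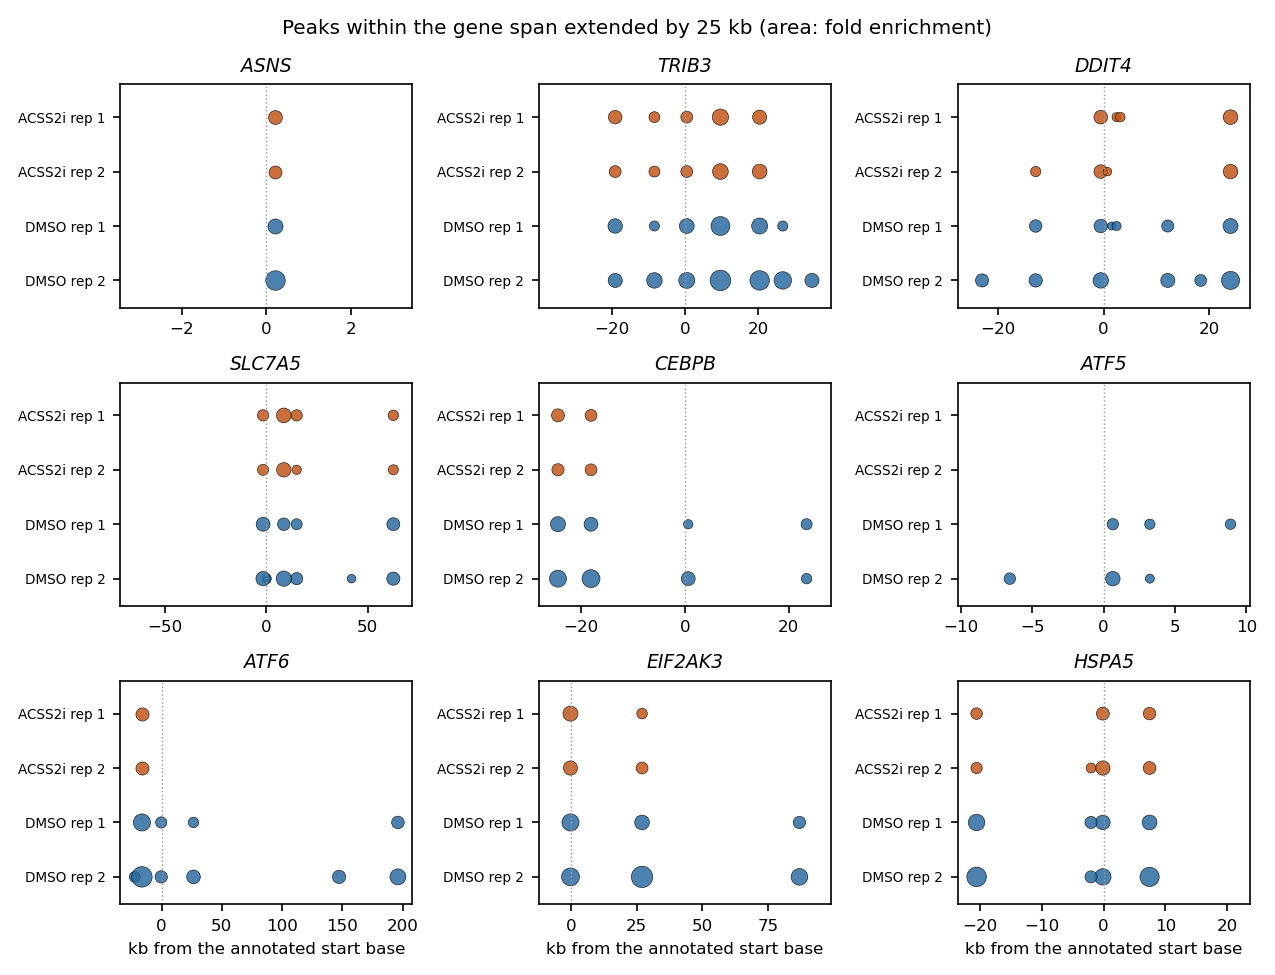
Peaks within the gene span extended by 25 kb for 9 members, by distance in kb from the annotated start base (dotted line, positive in the direction of transcription), with the ACSS2i libraries above the DMSO libraries. Dot area follows the fold; ATF5 has no dot in either ACSS2i row, and ASNS has 1 peak in each of the 4 rows.

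The sensors of the ER arm differed in how many lists held them. Of the sensors and XBP1, 2 of 4 genes were in all 4 libraries and 1 was lost. At the rates of their DMSO strength classes, 1.95 would be in all 4 and 0.913 would be lost. EIF2AK3 (PERK, chr2:88556741-88628145) had folds of 7.49 and 6.66 in the ACSS2i libraries, against 9.69 and 10.6 in the DMSO libraries. On the ranking of genes found in all 4 libraries it stood at 95.9 and 89.1 in the ACSS2i libraries, against 98.8 and 94.3 in the DMSO libraries, and the groups overlapped. ERN1 (IRE1, chr17:64039142-64130144) had a fold of 3.61 in ACSS2i replicate 1 and no peak in ACSS2i replicate 2, against 4.27 and 9.48 in the DMSO libraries. ATF6 (chr1:161766320-161964070) had no gene-end peak in either ACSS2i library, against folds of 4.18 and 4.98 in the DMSO libraries. ATF6 was among the weaker peaks already in DMSO, at percentiles of 23.7 and 25.6, in a class of which 47.8% of genes were lost. XBP1 (chr22:28794560-28800569) had folds of 4.67 and 5.14 in the ACSS2i libraries, against 5.94 and 14.4 in the DMSO libraries, and the gap between the DMSO libraries was the larger.

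Of the 8 chaperone and folding enzyme genes present in both DMSO libraries, 7 were in all 4, against 58.0% of all genes. Their DMSO peaks were strong, with a median lower DMSO percentile of 92.6, and 7.34 of the 8 would be in all 4 at the rates of their classes. HSPA5 (chr9:125234853-125241343) had folds of 5.51 and 6.74 in the ACSS2i libraries, against 6.94 and 8.84 in the DMSO libraries. PDIA4, a disulphide isomerase, had folds of 7.91 and 7.83 in the ACSS2i libraries, against 11.5 and 12.2 in the DMSO libraries. DNAJB9, a co-chaperone of BiP that restrains IRE1, had folds of 8.38 and 7.93 in the ACSS2i libraries, against 9.14 and 14.0 in the DMSO libraries, at a peak that also lies within the window of THAP5. DNAJC3, another BiP co-chaperone, had folds of 6.12 and 10.6 in the ACSS2i libraries, against 9.63 and 14.6 in the DMSO libraries, with overlap. HYOU1 was the exception, with a fold of 5.20 in ACSS2i replicate 1 and no gene-end peak in ACSS2i replicate 2, against 6.04 and 13.5 in the DMSO libraries. The 3 genes of ER-associated degradation, HERPUD1, SEL1L and EDEM1, were all in all 4 libraries, beside 2.50 at the rates of their classes. HERPUD1 had folds of 6.72 and 7.07 in the ACSS2i libraries, against 7.51 and 10.4 in the DMSO libraries. SEL1L, a scaffold of the HRD1 ubiquitin ligase, had folds of 4.22 and 5.28 in the ACSS2i libraries, against 7.56 and 11.8 in the DMSO libraries. The remaining 4 ER arm members, HSP90B1 (the chaperone GRP94), CALR (calreticulin), SDF2L1 and EDEM1, were in all 4 libraries with folds of 4.70 to 6.53 in the ACSS2i libraries, against 6.57 to 12.5 in the DMSO libraries.

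The sequence elements lay inside called peaks in nearly every library. All 5 ER stress elements and all 3 C/EBP-ATF elements were within a peak in each of the 4 libraries. Every gene carrying them had a peak within 1000 bp of its start base in all 4 libraries. The share over all promoters was not counted, so this describes the promoters and not the elements. The 2 ER stress elements II of HYOU1 were within a peak in ACSS2i replicate 1 and both DMSO libraries, and not in ACSS2i replicate 2. The ER stress element of HSPA5 lay 53 and 58 bp from the nearest summit in the ACSS2i libraries, against 56 and 67 bp in the DMSO libraries. The C/EBP-ATF element of CHAC1 lay 86.5 and 11.5 bp from it in the ACSS2i libraries, against 36.5 and 21.5 bp in the DMSO libraries. The cAMP element of PPP1R15A was within a peak in DMSO replicate 2 alone. Over the members with a printed start and a gene-end peak, the summit lay a median of −126 and −96 bp from the start base in the ACSS2i libraries, against −109 and −90 bp in the DMSO libraries, negative values being upstream.

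Peak strength was compared through ranks, because percentiles from lists of unequal length cannot be set side by side. Among the 6075 genes found at a gene end in all 4 libraries, each was ranked by −log10 q within each library on a scale of 0 to 100. The rank was higher in both ACSS2i libraries than in both DMSO libraries for 4 of the 21 members, against 19.1% of all 6075 genes, and lower in both for 2 of 21, against 16.5%. Ranked by fold, 6 members were higher and 2 lower, against 22.7% and 20.1% of all genes. Ranked by summit pileup, 2 were higher and 3 lower, against 17.5% and 15.9%. The balance of higher and lower members thus turned with the column used for ranking. The median rank change, ACSS2i minus DMSO, was −0.62 over the 21 members and 0.19 over all genes. It was 9.64 over 9 ISR arm members, and this value was −1.02 without ACSS2i replicate 2 and 3.06 without DMSO replicate 2. It was −0.64 over 12 ER arm members.

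Among the members that ranked higher, HERPUD1 had the largest change by −log10 q. Its rank was 83.8 and 87.2 in the ACSS2i libraries, against 55.9 and 60.3 in the DMSO libraries, a change of 27.4, with gaps of a few points within each group. ATF4 ranked 30.5 and 50.9 in the ACSS2i libraries, against 24.3 and 6.44 in the DMSO libraries, a change of 25.3. These are changes in order among genes, since the fold of both was lower in the ACSS2i libraries. HERPUD1 and ATF4 also ranked higher in both ACSS2i libraries when genes were ranked by fold or by summit pileup, and by fold the changes of DDIT4 (54.3), PPP1R15A (46.7) and ATF4 (30.0) exceeded that of HERPUD1 (29.7). SLC7A11 ranked 39.0 and 19.6 in the ACSS2i libraries, against 11.1 and 14.1 in the DMSO libraries, and by fold or pileup its groups overlapped. DDIT4 ranked 94.1 and 94.2 in the ACSS2i libraries, against 87.7 and 81.3 in the DMSO libraries, and by pileup its groups overlapped.

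CHAC1 had the largest change of all 21 members by −log10 q, towards a lower rank. Its rank was 9.88 and 43.7 in the ACSS2i libraries, against 61.9 and 53.3 in the DMSO libraries, a change of −30.8 by −log10 q and −48.5 by fold. By summit pileup the CHAC1 change was −16.2 and its groups overlapped. XBP1 ranked 32.3 and 43.4 in the ACSS2i libraries, against 19.9 and 90.1 in the DMSO libraries, so its change of −17.1 lies within the gap between the DMSO libraries. SEL1L ranked 14.9 and 34.3 in the ACSS2i libraries, against 33.3 and 46.1 in the DMSO libraries, with overlap by −log10 q. By fold and by pileup SEL1L ranked lower in both ACSS2i libraries than in both DMSO libraries, with changes of −28.3 and −14.1. PDIA4 ranked 99.0 and 99.1 in the ACSS2i libraries, against 99.97 and 99.3 in the DMSO libraries, a change of −0.58, and by fold its change was 5.11 in the other direction. PDIA4, DNAJB9 and EIF2AK3 had the highest mean ranks over the 4 libraries, at 99.3, 96.9 and 94.5. DDIT3, SLC7A11 and ATF4 had the lowest, at 19.5, 20.9 and 28.0.

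**Figure D4:**
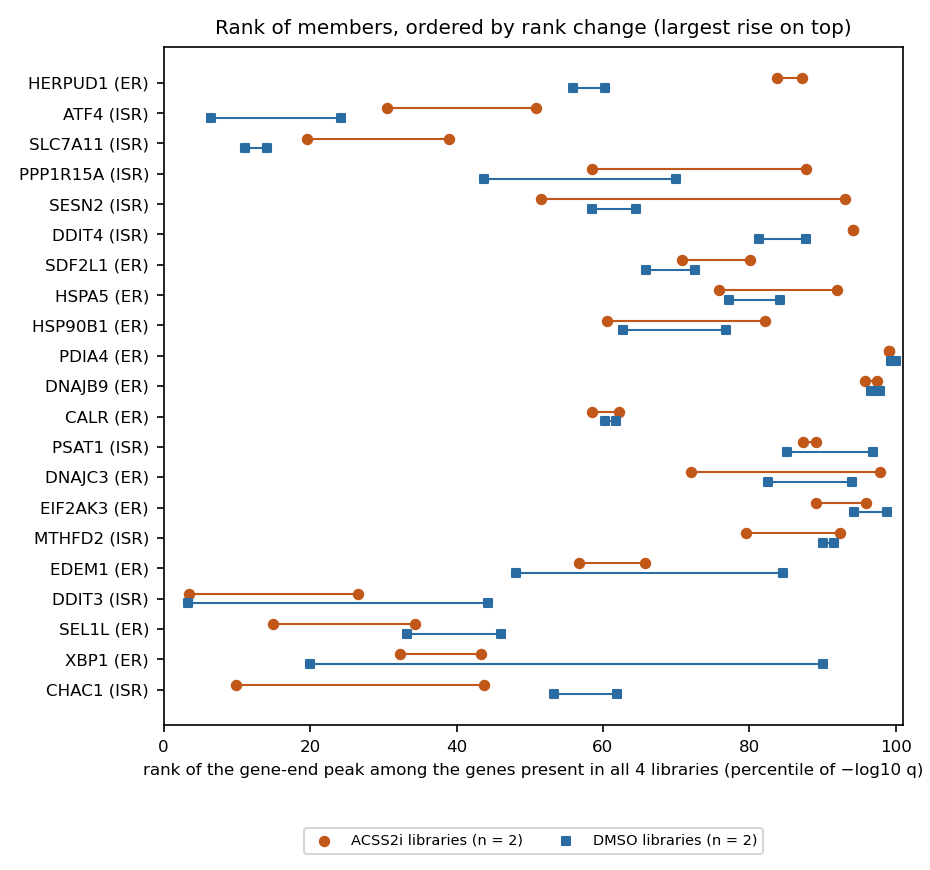
Rank by −log10 q of the 21 members found in all 4 libraries among the 6075 such genes, ACSS2i libraries as orange circles above DMSO libraries as blue squares, ordered by the change in mean rank. HERPUD1, at 83.8 and 87.2 against 55.9 and 60.3, is at the top and CHAC1, at 9.88 and 43.7 against 61.9 and 53.3, at the bottom.

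The height of the members' peaks above the genome background was lower in the ACSS2i libraries by about the same factor as for other genes. The pileup at the summit, a whole number of fragments recovered from the fold and −log10 p columns, was divided by the genome background of its library. The median of this signal over the 21 members was 10.4 and 13.0 in the ACSS2i libraries, against 23.8 and 62.4 in the DMSO libraries. Over all 6075 genes the medians were 8.64 and 9.48 in the ACSS2i libraries, against 19.9 and 48.1 in the DMSO libraries. The median log2 ratio of the group means, ACSS2i over DMSO, was −1.87 over the members and −1.85 over all genes. It was −1.85 in the ISR arm and −1.87 in the ER arm. Single members ranged from −2.39 for XBP1 to −1.46 for HERPUD1, and the quartiles over all genes were −2.02 and −1.69. The higher background coverage of the ACSS2i libraries and their shorter lists move together with this difference, and the treatment and these library differences cannot be told apart.

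**Figure D5:**
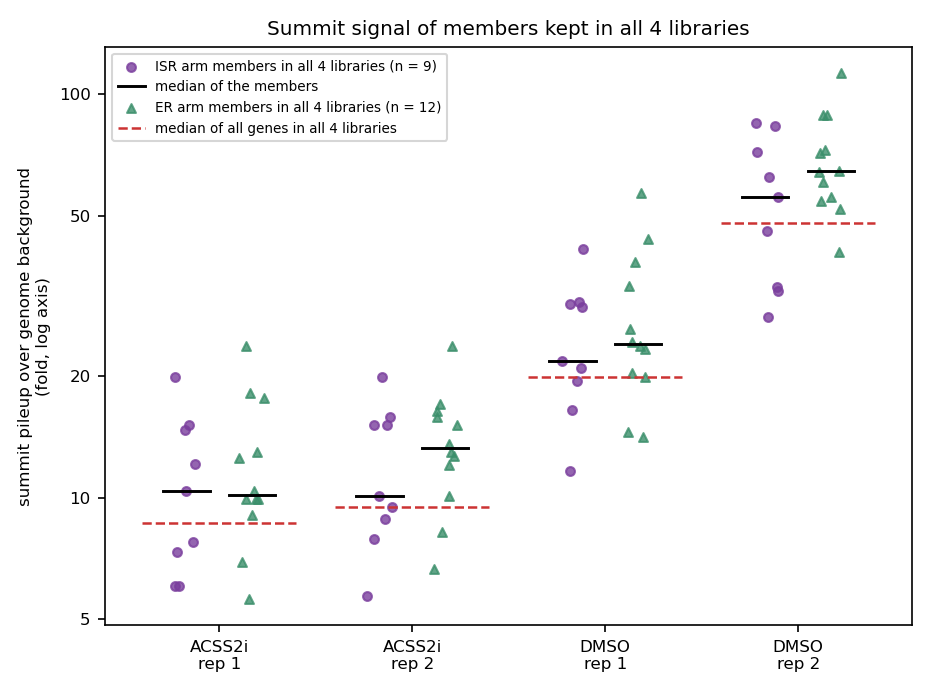
Summit pileup over genome background (fold, log axis) in each library for the 9 ISR arm and 12 ER arm members found in all 4 libraries, with the median of each arm (black bar) and of all 6075 genes (red dashed line). Members and all genes are lower together in the ACSS2i libraries, where the medians of all genes are 8.64 and 9.48, against 19.9 and 48.1 in the DMSO libraries.

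Away from gene ends, 53 regions lay within the members' spans extended by 25 kb, and 33 of them were in both DMSO libraries. Of those 33, 12 were in neither ACSS2i library (36.4%), against 38.5% of the 15683 such regions near any gene. In all 4 libraries were 16 of the 33 (48.5%), against 37.2% of the 15683. By arm, 5 of 19 regions were lost and 12 kept around ISR arm genes, and 7 of 14 were lost and 4 kept around ER arm genes. Regions of the same gene were counted separately, and TRIB3 and SLC7A5 each held several of the 12 kept ones. The DMSO strength of the regions was not matched. None of the 53 regions was found in ACSS2i libraries alone.

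TRIB3 had a strong region away from gene ends that was in all 4 libraries. It lies 9.7 kb inside the gene (chr20:390449-391545), with folds of 8.72 and 8.14 in the ACSS2i libraries, against 11.7 and 13.9 in the DMSO libraries, and 3 further regions around TRIB3 were in all 4 libraries. SLC7A5 held a region 8.6 kb inside the gene (chr16:87860580-87861224) with folds of 7.12 and 6.86 in the ACSS2i libraries, against 5.15 and 7.68 in the DMSO libraries, with overlap. A region 24.1 kb beyond the DDIT4 start (chr10:72297255-72298706) had folds of 7.08 and 6.95 in the ACSS2i libraries, against 7.42 and 10.8 in the DMSO libraries. In the ER arm, the region 27.1 kb inside EIF2AK3 (chr2:88600028-88600682) had folds of 3.69 and 4.65 in the ACSS2i libraries, against 7.09 and 15.0 in the DMSO libraries. ATF6 lost, beside its start, the regions 26.5 and 196.2 kb inside the gene, with folds of 3.61 and 6.19 at the nearer one in the DMSO libraries. DNAJC3 lost 2 regions inside the gene while keeping its promoter peak.

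Wider lists of the same pathways, which leave out the members, gave similar counts. Of 36 other genes of the integrated stress response, 31 were in both DMSO libraries, 20 in all 4 and 3 lost, and the lost genes were EIF2AK2, STC2 and PYCR1. EIF2AK2 encodes the eIF2-alpha kinase PKR and PYCR1 an enzyme of proline synthesis. Of the 9 aminoacyl-tRNA synthetase genes in that list, 7 were in all 4 libraries (77.8%) and 0 were lost. Of its 12 further ATF4 target genes in both DMSO libraries, 7 were in all 4 (58.3%) and 2 were lost. Of its 10 kinase, eIF2 and phosphatase genes, 6 were in all 4 (60.0%) and 1 was lost. Of 36 other genes of the unfolded protein response, 34 were in both DMSO libraries, 24 in all 4 and 3 lost. The lost genes were MBTPS2, which encodes the protease that makes the second cut in ATF6, the folding enzyme gene TXNDC5 and the translocon gene SEC63. The losses in the wider lists were 9.68% and 8.82% of the genes in both DMSO libraries, against 18.9% of all genes. Genes in all 4 libraries were 64.5% and 70.6%, against 58.0% of all genes. The DMSO strength of these lists was not matched.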

How the data were processed

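ATAC-seq peak lists of 4 libraries were grouped by the treatment in the labels. Per the submitters' processing notes the build was hg38, and the tools named, with no role or order, include MACS2 2.1.2, Bowtie2, Picard 2.18.26, Trimmomatic 0.38 and SAMtools 1.9. The sources used here do not state the caller's options, the filter behind the lists or any Tn5 shift. Lists were called separately per library.

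The score deposited by the authors was 10 times −log10 q, cut to a whole number, for at least 99.99% of summits in each list and was not used. The fold deposited by the authors is a ratio of summit to local background. Both −log10 p and −log10 q, as deposited, are the caller's p-value and q-value, and every −log10 q was at least 2.00. These values describe and rank peaks within a list.

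Summits sharing an interval were 1 peak with the values of its strongest summit. A gene-end peak overlapped a window of 1000 bp around either end of the RefSeq span (GRCh38.p14, the same build). Lost means in both DMSO and neither ACSS2i library. Fold and −log10 p were solved for a whole-number pileup, which matched within 0.001 for 100% of summits. The lowest local background solved in a library is its genome background. Peaks overlapping by 1 bp or more were merged into 53572 regions. The pileup recovery and the gene-end search were tested on simulated data. Python 3.11.15, NumPy 2.4.6, pandas 2.3.3 and SciPy 1.17.1 were used.

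The members and lists were chosen with earlier results of these data known. Named members were those not in all 4 libraries, the 3 highest and 3 lowest in rank, the 3 largest rises and 3 largest falls, and the head genes of each role. Others were named to fill a role after their values were seen. No sequence was printed for members without a table entry.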

Additional observations from a re-analysis of the deposited data

How the results depend on the processing

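No paired analysis was possible because no test can be run on these counts with 2 libraries a group. Within replicate number 1, 5 of the 29 members in the DMSO library were not in the ACSS2i library, against 38.5% of all genes, and within number 2, 8 of 31, against 32.1%. The 3 lost members were the same genes with windows of 500 and 2500 bp, at the start base alone and in the same merged region. With −log10 q of at least 5, 3 members were lost, ATF5, ATF6 and ERN1, 1 of 12 in the ISR arm and 2 of 15 in the ER arm, against 29.8% of all genes. At equal list length 0 of 21 members were lost (0 of 8 and 0 of 13 by arm, beside 0.694 at the rates of their classes), against 5.29% of all genes, and 0 of 12 regions away from gene ends, against 7.22% of all such regions. ATF5, CEBPB and ATF6 are outside those 21, since the cut removed them from at least 1 DMSO list. Leaving out 1 library gave 3 of 29 to 6 of 29 lost members, 2 to 4 in the ISR arm, 1 to 3 in the ER arm and 3.94 to 7.66 at the rates of their classes, against 19.4% to 38.1% of all genes. Lost regions then ranged from 13 of 33, against 44.9% of all such regions, to 29 of 51, against 62.0%. The ISR arm's median rank change then ran between −1.02 and 11.7. With ACSS2i replicate 2 set against DMSO replicate 1 only, a choice made after seeing the data, 6 of 29 members were lost, 3 of 15 in the ER arm, against 23.3% of all genes. Ranked by fold, PDIA4 changed by 5.11, and the median rank change was 6.21 over the members and 6.54 over the ER arm. The causes were not tested, beyond fewer or shorter lists. Depth is unknown, so an unlisted peak is not shown to be absent.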
